A study of Mus musculus with 16 samples.

Results

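The SLC25 genes encode the mitochondrial carriers, and their transcript levels were followed in mouse terminal ileum with and without Bcl6 in hepatocytes, the parenchymal cells of the liver. The members were 46 genes whose symbol is Slc25a followed only by a number, of the 24940 genes of the count table. Poly(A) RNA was sequenced from the ileum next to the cecum of 16 C57BL/6 mice, 4 in each of 4 groups. The WT mice of each sex were Bcl6 fl/fl, with loxP-flanked Bcl6 alleles, and the LKO mice of each sex were Alb-cre, Bcl6 fl/fl, so all animals carried the flanked alleles and LKO animals also carried a Cre recombinase driven by the albumin promoter. That promoter is active in hepatocytes, so the ileum is not the tissue in which Bcl6 was deleted. Animals were fed ad libitum or briefly fasted according to the study's methods, and their age is not given in the sources used here. The comparisons asked how the ileum of each sex responded to loss of Bcl6 in the liver, and how the sexes differed within each genotype.

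Mitochondrial carriers sit in the inner mitochondrial membrane, which is closed to most solutes. They exchange nucleotides, phosphate, amino acids, organic acids and cofactors between the cytosol and the matrix, and so connect glycolysis, amino acid use and heme and nucleotide synthesis with respiration. In the small intestine, where absorptive cells burn glutamine and glutamate as fuel, carriers of glutamate, citrulline precursors and adenine nucleotides stand between nutrient uptake and ATP supply.

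Female LKO replicate 1 had a summed gene count of 60.3 M (M, mega), and the other 15 libraries lay between 15.7 and 20.5 M. At these depths 3 counts, the limit that a count of 0 allows, equalled 0.0485 to 0.191 counts per M (CPM), which covers counting error only. Members took 0.392% to 0.426% of the counts, or 3816 to 4244 CPM in sum. Bcl6 was present in the ileum of every group, at 14.0 to 17.9 CPM in male WT, 17.2 to 21.9 in male LKO, 9.24 to 15.1 in female WT and 15.2 to 26.1 in female LKO. Xist, the X-inactivation transcript, was at or below 0.281 CPM in the males and at or above 368 CPM in the females, which matches the labelled sexes. The enterocyte markers summed to 12837 to 18015 CPM, while B cell markers differed between pieces of ileum, with sums of 180 and 341 CPM in female LKO replicates 2 and 3 and 17.5 to 109 CPM in the other 14 libraries. The title of each library holds a number, called the animal number below only because each library came from its own mouse. Nothing says what these numbers mark or what their order follows. The p-values measure the spread between these animals.

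Levels spanned more than 3 orders of magnitude on the scale that allows genes to be compared, CPM per kb of transcript. Slc25a5, the ADP/ATP carrier ANT2 that exports ATP from the matrix, led with a level of 802 CPM per kb and a range of 695 to 907 over the 16 libraries. Slc25a3, which imports the phosphate used to make that ATP, followed at 445 CPM per kb. These genes held 36.9% and 20.5% of the summed level of the family. Slc25a22, a carrier of glutamate into the matrix, came next at 111 CPM per kb, and these 3 genes together made up 62.5% of the sum. They were followed by Slc25a39, linked to mitochondrial glutathione, at 99.1, the citrate carrier Slc25a1 at 91.8, the ATP-Mg/phosphate carrier Slc25a24 at 89.0 and the second ADP/ATP carrier Slc25a4 (ANT1) at 77.5 CPM per kb.

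**Figure D1:**
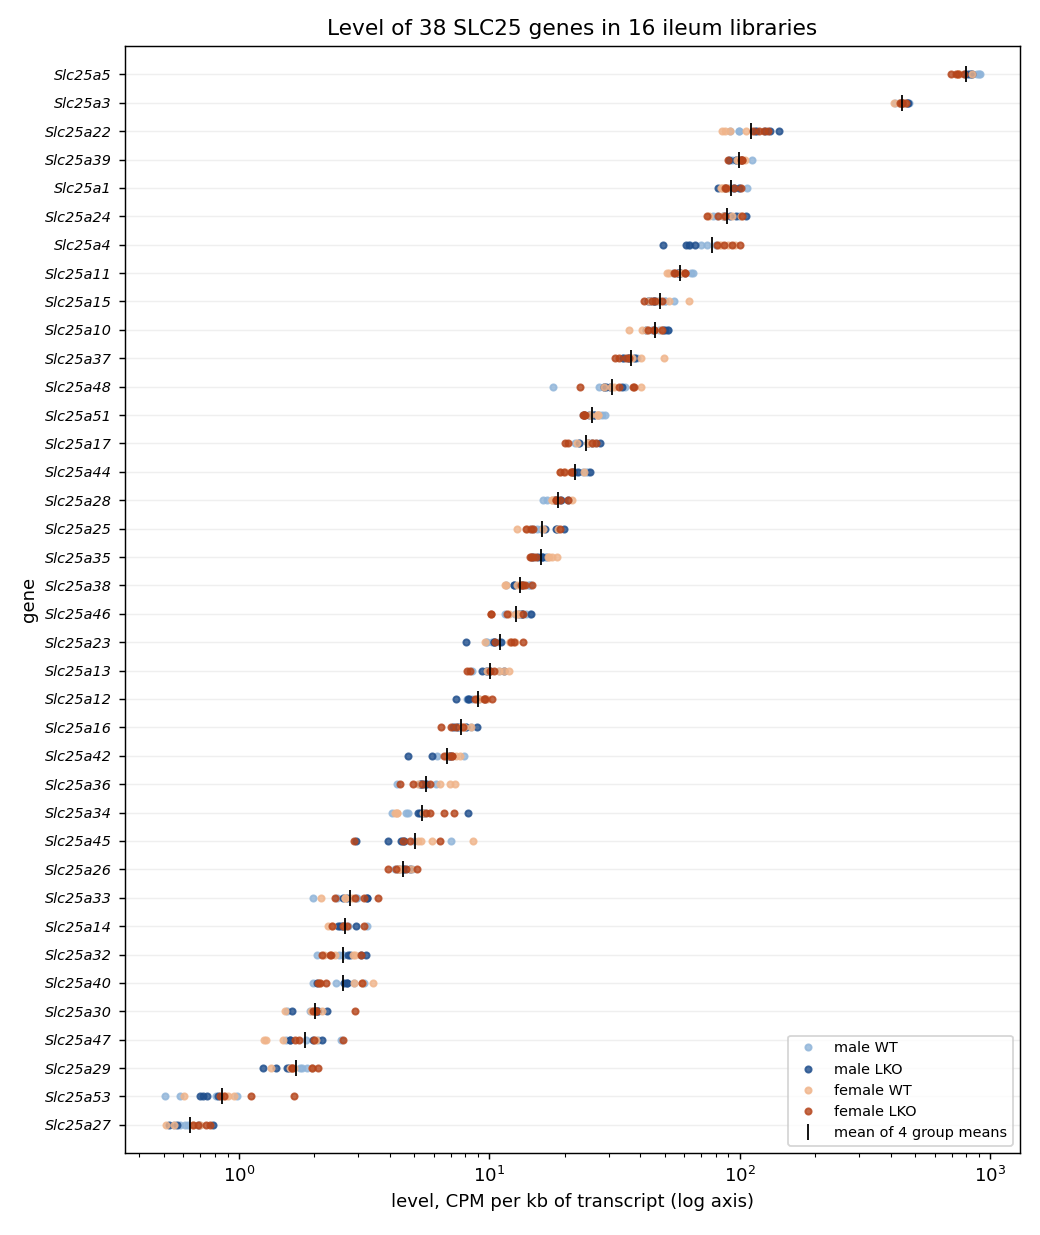
Level of 38 of the 39 tested SLC25 genes, in CPM per kb of transcript on a log axis, with a point for each of the 16 libraries coloured by group and a bar for the mean of the 4 group means. Slc25a5 and Slc25a3 stand apart at 802 and 445 CPM per kb, and from Slc25a22 downwards nearly all neighbouring genes overlap.

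In the order of levels, the ranges over libraries overlapped between 42 of the 45 pairs of neighbours. The gaps lay between Slc25a5 and Slc25a3, between Slc25a3 and Slc25a22, and between Slc25a26 and Slc25a33, so the places of most members in the order are not separated by more than the spread of the libraries. The median over the 39 tested members was 12.8 CPM per kb, against 7.05 over all genes tested. Within groups the coefficient of variation of CPM ran from 3.94% for Slc25a3 to 25.4% for Slc25a45, with a median of 9.03% over the 29 members with at least 10 CPM.

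In this tissue 7 members had too few reads to pass the filter of the main edgeR fits and were not tested there. DESeq2, which was run without that filter, tested 45 members in each comparison. Slc25a41, an ATP-Mg/phosphate carrier, had a count of 0 in all 16 libraries, which allows up to 0.0485 to 0.191 CPM per library. Slc25a54 had 2 reads in all libraries together, Slc25a21 had 9, the ADP/ATP carrier Slc25a31 (ANT4, known from male germ cells) 16, Slc25a2 and the second glutamate carrier Slc25a18 45 each, and Slc25a43 108. Unlike levels were found between members that lie close together in the genome (mm10). Slc25a41 and Slc25a23 on chromosome 17 are 2056 bases apart and had levels of 0 and 11.0 CPM per kb. Slc25a54 and Slc25a24 on chromosome 3 lie 6566 bases apart and had 0.00491 and 89.0 CPM per kb, and Slc25a43 and Slc25a5 on the X chromosome, 18289 bases apart, had 0.256 and 802. Slc25a29 and Slc25a47 on chromosome 12, 15252 bases apart with 1 other gene of the count table in between, were alike at 1.69 and 1.84 CPM per kb.

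The transcripts of 31 members held no run of 100 bases, the length of a read, that also occurs in the transcript of another gene. Reads with several positions were discarded in the alignment, so members can lose reads from shared runs that lie at several genome positions. The positions of the runs were not compared, so the shares given here do not measure lost reads. Slc25a5 shared the most, 12.0% of its runs, with 4 other genes of which Gm5560 held 6.31%, and Slc25a33 shared 10.2%, with Gm13068. Slc25a22, Slc25a34 and Slc25a4 shared none. The RefSeq transcript of the count table was matched for 43 members. For the others, Slc25a22 among them, the longest GENCODE transcript was used. That of Slc25a22 had 5590 bases, against 2795 in the count table.

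The start regions of 4 members are printed because the comparisons below turn on these genes. They are RefSeq sequences on GRCm38.p6 (mm10) from 250 bases before to 50 bases after the transcript start, written 5′ to 3′ on the strand of the gene, with matches to 4 motifs in capitals. Slc25a22 lies at chr7:141437825-141438124 and Slc25a34 at chr4:141623785-141624084. Slc25a4 lies at chr8:46211013-46211312, and these 3 genes are on the minus strand. Slc25a5, at chrX:36795347-36795646, is on the plus strand.
Slc25a22: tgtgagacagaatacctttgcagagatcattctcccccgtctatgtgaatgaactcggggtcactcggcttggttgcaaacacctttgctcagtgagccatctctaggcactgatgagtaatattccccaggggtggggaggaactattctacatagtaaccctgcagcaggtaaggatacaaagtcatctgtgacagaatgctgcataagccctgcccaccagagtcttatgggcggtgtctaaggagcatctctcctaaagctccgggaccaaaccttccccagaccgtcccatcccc
Slc25a34: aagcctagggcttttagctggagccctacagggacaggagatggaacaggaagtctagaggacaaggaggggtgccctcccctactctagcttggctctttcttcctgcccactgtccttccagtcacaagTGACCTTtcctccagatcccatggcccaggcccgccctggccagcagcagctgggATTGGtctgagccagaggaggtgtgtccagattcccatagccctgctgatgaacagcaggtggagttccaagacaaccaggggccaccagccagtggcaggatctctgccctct
Slc25a4: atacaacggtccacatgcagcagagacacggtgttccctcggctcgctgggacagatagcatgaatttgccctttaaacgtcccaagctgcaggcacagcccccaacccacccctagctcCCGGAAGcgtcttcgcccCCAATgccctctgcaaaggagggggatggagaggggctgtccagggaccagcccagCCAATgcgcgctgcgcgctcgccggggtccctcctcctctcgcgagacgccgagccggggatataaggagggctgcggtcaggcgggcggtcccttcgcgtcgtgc
Slc25a5: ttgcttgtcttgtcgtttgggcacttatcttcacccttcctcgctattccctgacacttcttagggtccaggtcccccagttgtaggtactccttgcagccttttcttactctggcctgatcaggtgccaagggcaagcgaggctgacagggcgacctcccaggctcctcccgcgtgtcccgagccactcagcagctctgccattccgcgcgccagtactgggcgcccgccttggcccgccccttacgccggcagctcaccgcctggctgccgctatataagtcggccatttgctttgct

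The motifs were searched as exact letters on both strands in the 35 members that matched a RefSeq start region, and in all 18097 start regions of the same length. CCGGAAG (ETS factors) occurred in 17.1% of members and 12.0% of all regions. AAGGTCA (estrogen-related receptors) occurred in 2.86% of members against 4.09% of all, and Slc25a34 was the member that held it, as TGACCTT 119 bases before the start. CCAAT was in 48.6% and 38.8%, and TATAAA in 2.86% and 12.8%. Slc25a4 held CCGGAAG once and CCAAT in 2 places, Slc25a34 held CCAAT once as ATTGG, and the windows of Slc25a22 and Slc25a5 held none of these motifs. The printed matches do not overlap one another. GC content was 51.7% for Slc25a22, 59.0% for Slc25a34, 65.7% for Slc25a4 and 61.0% for Slc25a5, with a median of 60.3% over the 35 members and 56.7% over all regions.

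Loss of hepatic Bcl6 went with more Slc25a22 transcript in the ileum of both sexes, while the rest of the family showed no call by edgeR. Slc25a22 imports glutamate into the matrix together with a proton. Its 4 male WT libraries had levels of 276, 277, 256 and 322 CPM and its 4 male LKO libraries 369, 401, 324 and 351 CPM. In females the WT libraries had 237, 244, 256 and 295 CPM and the LKO libraries 317, 360.4, 349.9 and 334 CPM. Every LKO library was above every WT library of the same sex, although in males the margin was small, with the highest WT library (replicate 4) at 322 and the lowest LKO library (replicate 3) at 324 CPM. Group means were 283 ± 27.9 (SD, n = 4), 361 ± 32.2, 258 ± 25.8 and 340.2 ± 19.1 CPM in WT and LKO males and WT and LKO females. On the log2 scale LKO minus WT was 0.36 for males (SE 0.082, adjusted p = 0.180) and 0.40 for females (SE 0.075, adjusted p = 0.104) by edgeR's quasi-likelihood test, so neither sex alone passed the threshold of 0.05.

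With both sexes in the fit and sex as a covariate, Slc25a22 rose 1.30-fold (adjusted p = 0.00589, edgeR), in 1 of 39 members tested against 0.269% of all 15598 genes. It was also the only member whose LKO and WT libraries did not overlap in either sex in the same direction, which held for 0.218% of all genes tested. The difference between the sexes in this response was -0.046 (SE 0.12, adjusted p = 0.963, edgeR). Between libraries with neighbouring animal numbers the log2 ratio of mean CPM was 0.20 in males (1 against 1 library) and 0.40 and 0.24 in females (2 WT against 1 LKO library and 1 against 3). With the animal number as a covariate the both-sexes difference was 0.32 with an adjusted p of 0.170, and with sets of neighbouring numbers as a factor it was 0.28 with 0.312, so the call did not hold in these fits. The call held without any 1 of the 16 libraries, with adjusted p from 0.00148 to 0.0234 by edgeR. In males every WT library has a lower number than every LKO library, so there the order of the numbers follows the genotype. The part of each in the difference cannot be told apart. In females the numbers of the genotypes interleave.

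Cell type markers also differed between these libraries. In the both-sexes fit all 5 Paneth cell markers were higher in LKO at an unadjusted p below 0.05, where 4.67% of all genes were. Their median log2 difference was 0.28, and none was called. In males 3 of the 5 were called, against 0.0527% of all genes, and the sum of the 5 was 11052 to 13308 CPM in WT and 16564 to 19824 CPM in LKO. In females none of the 5 reached an unadjusted p of 0.05 by edgeR and the sums overlapped (14756 to 20154 CPM in WT and 18052 to 19849 CPM in LKO). Among goblet cell markers 2 of 5 were lower in LKO at that level in the both-sexes fit, where 6.57% of all genes were. None of the 8 enterocyte or 8 smooth muscle markers reached that level in this fit, where 11.2% of all genes did. In females 3 of 5 adipocyte markers were higher in LKO at that level, where 4.95% of all genes were. Their median was 0.83, with sums of 79.5 to 159 CPM in WT and 118 to 281 CPM in LKO. In males all 5 were below 0 with none at that level (median -0.75). All 5 tested B cell markers were above 0 in females (median 1.98) and below 0 in males (median -0.97), with none at that level in either sex. The part of these cell types in the Slc25a22 difference was not tested. In a piece of tissue, fewer cells of a type and less RNA per cell cannot be told apart.

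**Figure D2:**
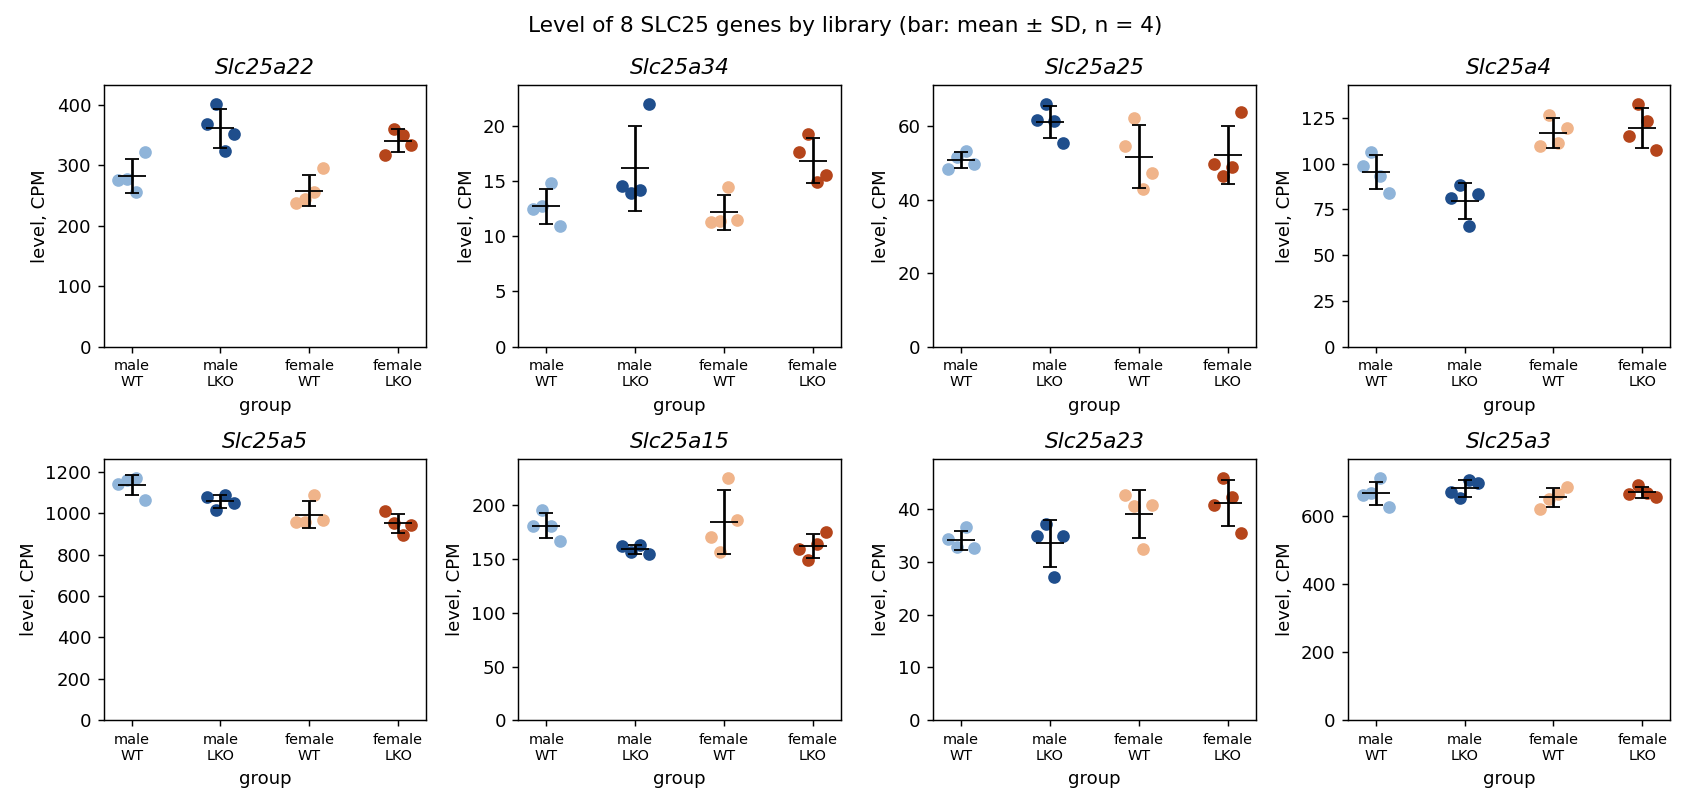
Level in CPM of 8 SLC25 genes in each library (points) by group, with the mean and SD of the 4 libraries of a group as bars, and each vertical axis starting at 0. Slc25a22 had means of 283, 361, 258 and 340.2 CPM in WT and LKO males and WT and LKO females, and Slc25a4 had 95.3, 79.5, 117 and 119 CPM.

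No other carrier of glutamate or aspartate was called in these comparisons. Slc25a12 and Slc25a13 (aralar and citrin) exchange matrix aspartate for glutamate in the malate-aspartate shuttle. Slc25a12 differed by -0.0078 (SE 0.056) between LKO and WT over both sexes. Slc25a13 had 34.0, 30.3, 35.4 and 37.1 CPM in female WT and 32.4, 25.3, 25.8 and 31.1 CPM in female LKO, ranges that overlapped, with a log2 difference of -0.25 (SE 0.10, adjusted p = 0.360) in females and 0.063 (SE 0.093) in males. Of 19 enzymes that make or use glutamate and aspartate, 1 passed the test over both sexes, where 0.269% of all genes did. This was Asns, asparagine synthetase, which uses aspartate and glutamine. It rose in LKO by 0.40 on the log2 scale (SE 0.078, adjusted p = 0.0344, edgeR), with group means of 51.8, 62.5, 48.5 and 70.1 CPM in WT and LKO males and WT and LKO females. With sets of neighbouring numbers as a factor edgeR called no gene over both sexes, so the call of Asns did not hold there. With the animal number as a covariate it called 2 genes in all. Without the numbers in the fit, the mitochondrial aspartate aminotransferase Got2 differed by 0.048 (SE 0.042) and glutamate dehydrogenase Glud1 by -0.13 (SE 0.048, adjusted p = 0.293, edgeR). The median over the 19 enzymes was 0.028, against 0.00065 over all genes.

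Slc25a34, a carrier whose substrate is less certain, was the member next to Slc25a22 in the both-sexes fit. Its levels were 12.4, 12.7, 14.8 and 10.9 CPM in male WT and 14.5, 13.9, 14.1 and 21.9 CPM in male LKO. Female WT had 11.2, 11.4, 14.5 and 11.5 CPM and female LKO 17.6, 19.3, 14.9 and 15.5 CPM. In females every LKO library lay above every WT library, and in males 1 WT library (replicate 3) was above 3 of the LKO libraries, with male LKO replicate 4 far above the rest. The log2 difference over both sexes was 0.41 (SE 0.10), with adjusted p = 0.0911 by edgeR, so it was not called, whereas DESeq2, which called 1.09% of all genes over both sexes and 0.764% in females, gave an adjusted p of 0.0155 over both sexes and 0.0362 in females. In males the difference was 0.36 (SE 0.15) with all libraries. It ran from 0.17, without male LKO replicate 4, to 0.44 with 1 library left out, so its size was not stable. With the animal number as a covariate, which follows the genotype in males, it was -0.016 (SE 0.21). This was the 1 change of sign in 19 alternatives. With sets of numbers as a factor, which compares 1 WT with 1 LKO library, it was 0.42. Slc25a35, another carrier of less certain substrate, had values of the opposite sign. It had 33.9, 31.5, 31.3 and 32.5 CPM in female WT and 27.2, 26.4, 28.0 and 26.6 CPM in female LKO without overlap, a difference of -0.25 (SE 0.063, adjusted p = 0.206) in females, and -0.049 (SE 0.075) in males.

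In males edgeR called none of the 39 tested members and 0.0527% of all 15169 genes between LKO and WT. At an unadjusted p below 0.05 there were 8 members, 20.5% of those tested against 5.29% of all genes, of which 4 were higher and 4 lower (3.01% and 2.28% of all genes), and DESeq2 called 1 (Slc25a22) and 0.318% of all genes. With the animal number as a covariate or sets of numbers as a factor, 2 of 39 members (5.13%) had an unadjusted p below 0.05, against 2.05% and 3.55% of all genes. The groups did not overlap for 6 members, 15.4% against 2.95% of all genes. The median log2 difference over members was -0.019, against -0.0020 over all genes. Slc25a25, an ATP-Mg/phosphate carrier that sets the adenine nucleotide content of the matrix, had 48.4, 51.6, 53.4 and 49.7 CPM in male WT and 61.8, 66.0, 61.3 and 55.6 CPM in male LKO, without overlap. Its difference was 0.28 (SE 0.071, adjusted p = 0.306), and in females it was 0.013 (SE 0.13).

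Of the others in males, the folate carrier Slc25a32 had a difference of 0.28 (SE 0.13, adjusted p = 0.936). Those on the lower side included Slc25a4 with -0.26 (SE 0.092, adjusted p = 0.753), the ornithine carrier Slc25a15 with -0.18 (SE 0.065, adjusted p = 0.748) and Slc25a45 with -0.40 (SE 0.17, adjusted p = 0.893). With sets of numbers as a factor, males are compared through 1 WT and 1 LKO library that share a set. The differences of Slc25a4, Slc25a15 and Slc25a45 in males were then -0.047, -0.037 and -0.043. With the animal number as a covariate they were -0.24, -0.11 and -0.26. Slc25a32 had 0.30 with sets and 0.26 with the number. The difference of Slc25a45 was -0.23 without male WT replicate 2. Slc25a15, which brings ornithine to the matrix for citrulline synthesis in the gut, had 181, 196, 181 and 167 CPM in male WT and 162, 157, 163 and 154 CPM in male LKO, so that each LKO library was below each WT library. In females its difference was of like size, -0.19, but with a larger error (SE 0.10) and overlapping ranges (156 to 225 CPM in WT and 149 to 175 CPM in LKO). Over both sexes Slc25a15 differed by -0.19 (SE 0.060, adjusted p = 0.206).

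In females none of the 39 members were called by edgeR, against 0.0392% of all 15298 genes. DESeq2 called 2, Slc25a22 and Slc25a34, and 0.764% of all genes. An unadjusted p below 0.05 was found for 7 members, 17.9% against 11.7% of all genes, with 2 higher and 5 lower (4.95% and 6.75% of all genes), and 6 had groups without overlap, 15.4% against 6.31%. The median over members was 0.013, against 0.0070 over all genes. The carriers on the lower side in female LKO included Slc25a51, which imports NAD+ into the matrix, and Slc25a37 (mitoferrin 1), which imports iron.

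Slc25a51 had 119.6, 111, 121 and 120.1 CPM in female WT and 106, 105, 107 and 106 CPM in female LKO, the latter with an SD of 0.959. The difference was -0.16 (SE 0.053, adjusted p = 0.318) in females and -0.094 (SE 0.071) in males, and -0.13 (SE 0.042, adjusted p = 0.216) over both sexes. Once male WT replicate 4 was left out, the adjusted p by edgeR over both sexes was 0.0466, and the genes called rose from 42 to 102. Slc25a37 had 167, 154, 152 and 206 CPM in female WT and 131, 149, 137 and 146 CPM in female LKO, which did not overlap. Female WT replicate 4 was the highest of all 16 libraries for this gene. Its difference was -0.27 (SE 0.093, adjusted p = 0.320) in females and -0.029 (SE 0.064) in males, and the female value was -0.16 without female WT replicate 4. The second mitoferrin, Slc25a28, differed by 0.025 (SE 0.079) in females and 0.12 (SE 0.082) in males. Slc25a37 is also known from red cell precursors, and the erythroid markers had sums of 9.69 to 27.8 CPM in female WT and 13.9 to 25.6 CPM in female LKO, with none of the 5 tested at an unadjusted p below 0.05. Slc25a36, a carrier of pyrimidine nucleotides, had 19.3, 15.9, 21.2 and 22.3 CPM in female WT and 13.4, 16.5, 15.1 and 17.7 CPM in female LKO, with overlap, and a difference of -0.34 (SE 0.12, adjusted p = 0.330).

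Over both sexes 7 members had an unadjusted p below 0.05, 17.9% against 11.2% of all genes, with 2 higher and 5 lower in LKO (4.67% and 6.57% of all genes). These 5 were Slc25a15, Slc25a35, Slc25a37, Slc25a45 and Slc25a51, and none passed the adjusted threshold. The median over the 39 members was 0.00045, against 0.00065 over all genes, with 21 members above 0 and 18 below. By substrate group, none of the 3 carriers of di- and tricarboxylates and oxo acids, the 7 carriers of adenine nucleotides and phosphate or the 3 uncoupling-protein-like carriers had an unadjusted p below 0.05. Slc25a3, the phosphate carrier, had 659.7, 667, 711 and 627 CPM in male WT, 670.2, 652, 706 and 696 in male LKO, 620.0, 649, 664 and 685 in female WT and 664, 691, 667 and 654 in female LKO. All 4 groups overlapped, and its difference over both sexes was 0.032 (SE 0.038). The dicarboxylate carrier Slc25a10, with the smallest p of its group, differed by 0.076 (SE 0.058, adjusted p = 0.672), and Slc25a27 (UCP4), the least abundant tested member per kb, by 0.18 (SE 0.10, adjusted p = 0.569). Slc25a39, the most abundant cofactor carrier, differed by -0.035 (SE 0.045).

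**Figure D3:**
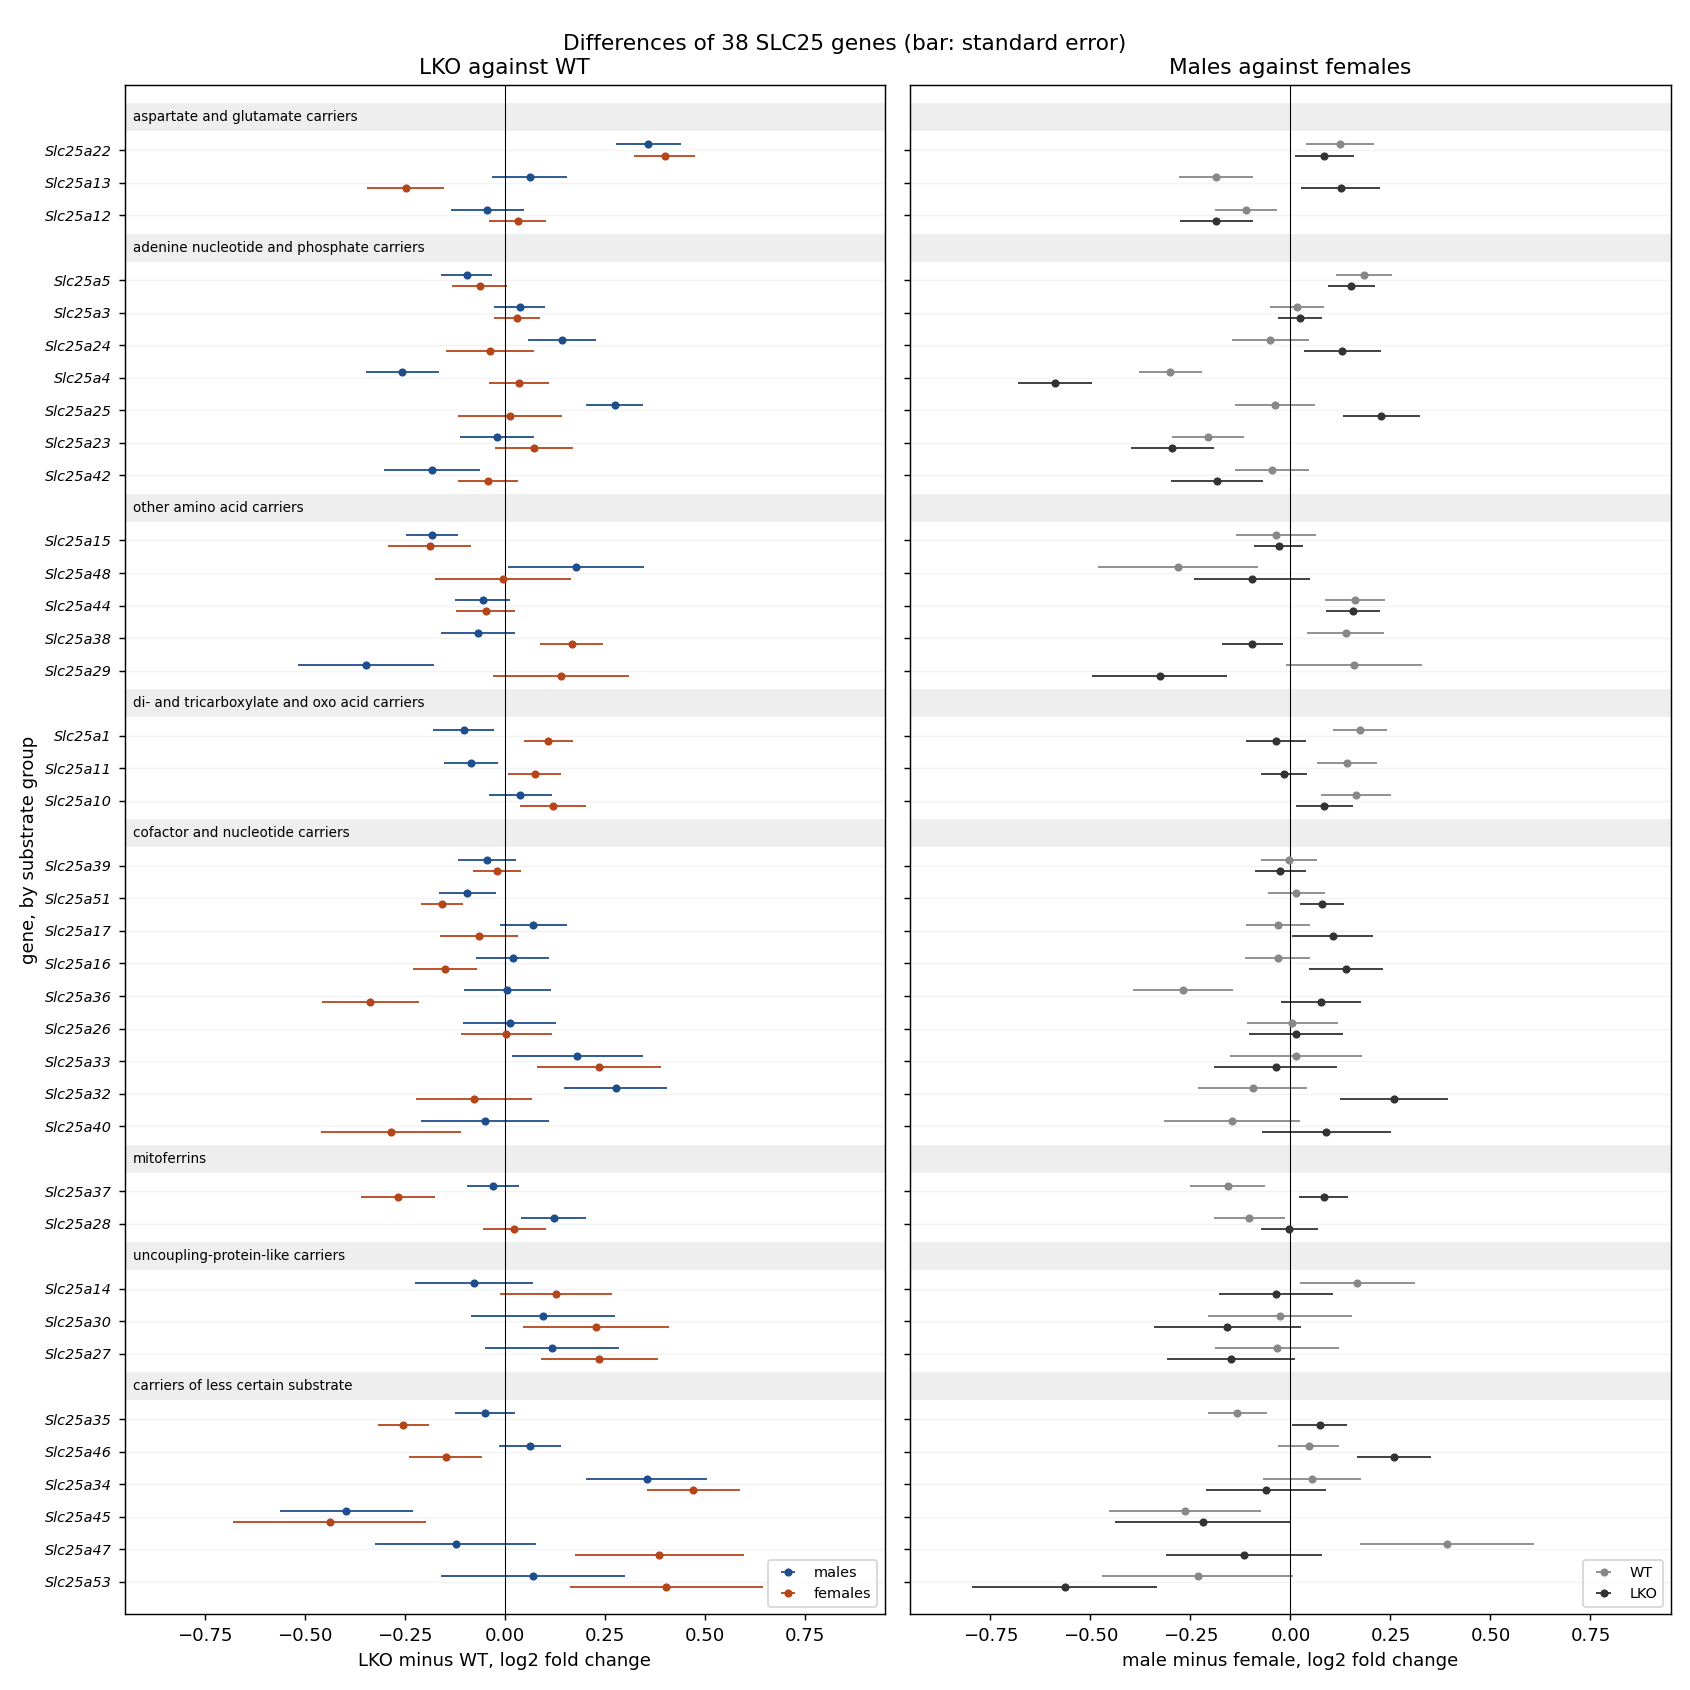
Log2 fold change of 38 of the 39 tested SLC25 genes, arranged by substrate group, for LKO against WT in males and females (left) and for males against females in WT and LKO (right), with standard errors as bars. Slc25a22 lies at 0.36 and 0.40 in the left panel, and Slc25a4 at -0.30 and -0.59 in the right panel. The points of the 2 panels share libraries.

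The response to genotype was compared between the sexes by an interaction term (the male difference minus the female one). edgeR called none of the 39 members and 0.0% of all genes, DESeq2 called no member, and 6 members had an unadjusted p below 0.05, 15.4% against 5.64% of all genes, with 2 positive and 4 negative values (2.58% and 3.05% of all genes).

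Interaction values among these were -0.30 (SE 0.13) for Slc25a4, -0.49 (SE 0.22) for the basic amino acid carrier Slc25a29, -0.22 (SE 0.10) for Slc25a1, 0.30 (SE 0.14) for Slc25a13 and 0.20 (SE 0.088) for Slc25a35, each with an unadjusted p below 0.05 and an adjusted p of 0.845 by edgeR. Slc25a1, which exports citrate for fatty acid and sterol synthesis, had 156, 166, 178 and 151 CPM in male WT and 136, 145, 159 and 165 CPM in male LKO, and 141, 140.0, 145 and 148 CPM in female WT and 145, 169, 158 and 147 CPM in female LKO. Its male WT libraries were all above its female WT libraries, while the LKO ranges overlapped.

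Between the sexes the differences of the ADP/ATP carriers were of opposite sign, and that of Slc25a4 was called in LKO. Slc25a4 (ANT1) is known as the form of heart and muscle and Slc25a5 (ANT2) as that of dividing and epithelial cells. Slc25a4 had 98.4, 106, 92.9 and 83.8 CPM in male WT and 81.0, 88.0, 65.7 and 83.4 CPM in male LKO, against 109, 127, 111 and 119 CPM in female WT and 115, 132, 123 and 107 CPM in female LKO. No male library reached the lowest female one in the same genotype. In LKO the level fell in males against females to 0.665 of the female level, a log2 difference of -0.59 (SE 0.093, adjusted p = 0.0395, edgeR), the only call among 39 members against 0.0984% of all 15250 genes. In WT the difference was -0.30 (SE 0.080, adjusted p = 0.145) and was not called. The adjusted p in LKO lay near the threshold. DESeq2 also called Slc25a4, among 5.26% of all genes. The adjusted p by edgeR was between 0.0512 and 0.123 without male LKO replicate 1, 3 or 4 or female LKO replicate 1, 2 or 3, 0.0654 with a stricter filter on counts, 0.0659 in a non-robust fit, 0.189 with the animal number as a covariate and 0.543 with sets of neighbouring numbers as a factor. Its size stayed between -0.65 and -0.51 in these fits. Between libraries with neighbouring numbers the log2 ratio was -0.58 in LKO (1 male against 3 female libraries) and -0.51 and -0.16 in WT (1 against 1, and 3 male against 1 female).

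Slc25a5 lies on the X chromosome and had 1141, 1163, 1169.6 and 1064 CPM in male WT and 1081, 1017, 1086 and 1048 CPM in male LKO. Female WT had 956, 956, 1089 and 968 CPM and female LKO 1009.9, 954, 896 and 942 CPM. Males were above females in LKO without overlap, and in WT female replicate 3 (1089 CPM) lay within the male range. The log2 differences, male minus female, were 0.18 (SE 0.070, adjusted p = 0.269) in WT and 0.15 (SE 0.058, adjusted p = 0.160) in LKO, neither called. As a share of the summed level of both genes per kb, Slc25a4 was 7.11% to 8.15% in male WT, 5.55% to 7.76% in male LKO, 9.02% to 11.4% in female WT and 9.95% to 11.9% in female LKO. All 8 male libraries were thus below all 8 female ones. The share was computed after the values of both genes had been seen and is a description.

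**Figure D4:**
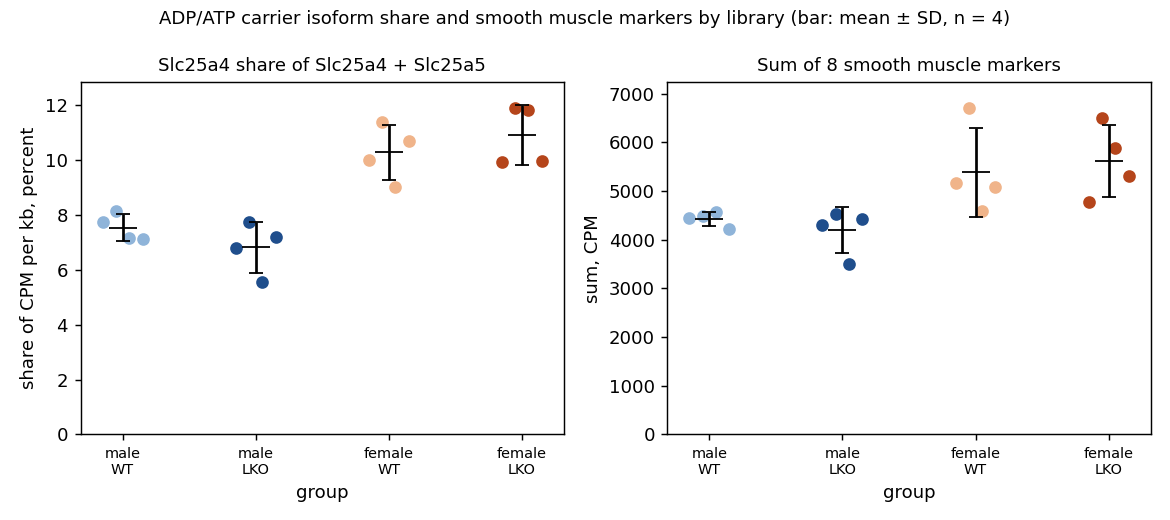
Left, the share of Slc25a4 in the summed CPM per kb of Slc25a4 and Slc25a5 in each library, in percent. Right, the summed CPM of 8 smooth muscle markers in the same libraries, and in both panels bars give the mean and SD of 4 libraries. Males lie at 5.55% to 8.15% and females at 9.02% to 11.9% on the left, and the male sums on the right, up to 4567 CPM, lie below the female sums, from 4583 CPM.

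Markers of smooth muscle had differences of the same sign as Slc25a4 between the sexes. In LKO all 8 were lower in males, 7 of them at an unadjusted p below 0.05, with a median log2 difference of -0.42, and their sum was 3509 to 4536 CPM in males and 4782 to 6500 CPM in females. In WT 6 of 8 were lower at that level, against 7.72% of all genes, with a median of -0.29. The sums were 4223 to 4567 and 4583 to 6698 CPM, and none of the 8 was called in either genotype. Markers of B cells (5 of 5 tested), adipocytes (4 of 5), enteric neurons and glia (3 of 6) and Paneth cells (3 of 5) were also lower in male than in female LKO at an unadjusted p below 0.05, where 11.7% of all genes were lower. Those higher in male LKO were 3 of 5 markers of proliferating cells, 2 of 5 erythroid, 2 of 5 goblet cell and 2 of 8 enterocyte markers, where 10.9% of all genes were higher. In WT all 5 Paneth cell markers were lower in males, with a median of -0.61. Of these 3 were called, against 0.25% of all genes. The part of these cell types in the difference of Slc25a4 was not tested.

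Within WT edgeR called none of the 39 members between the sexes, against 0.25% of all 15229 genes, and DESeq2 called none against 1.29%. An unadjusted p below 0.05 was found for 6 members, 15.4% against 13.9% of all genes, with 3 higher and 3 lower in males (6.21% and 7.72% of all genes), and groups without overlap for 3, 7.69% against 8.38%. In LKO the figures were 8 members, 20.5% against 22.6% of all genes, with 4 higher and 4 lower (10.9% and 11.7% of all genes), and 5 without overlap, 12.8% against 12.9%. Those shares lay close to or below those of all genes. The medians over members were -0.032 in WT and -0.017 in LKO, against -0.0073 and -0.00053 over all genes.

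Beside the ADP/ATP carriers, 4 members had a like direction in both genotypes at an unadjusted p below 0.05 in at least 1 of them. Slc25a44, a carrier of branched-chain amino acids, had male minus female values of 0.16 (SE 0.075, adjusted p = 0.354) in WT and 0.16 (SE 0.068, adjusted p = 0.200) in LKO, the latter 0.10 without male LKO replicate 1. Slc25a23, an ATP-Mg/phosphate carrier of muscle and brain, had values of -0.21 (SE 0.089, adjusted p = 0.322) and -0.30 (SE 0.10, adjusted p = 0.134). Its libraries had 34.3, 32.8, 36.5 and 32.5 CPM in male WT, 34.8, 37.1, 27.0 and 34.8 in male LKO, 42.5, 40.6, 32.3 and 40.6 in female WT and 40.8, 45.8, 42.2 and 35.4 in female LKO, with overlap in both genotypes. Slc25a53, on the X chromosome and at a low level of 0.856 CPM per kb, had values of -0.23 (SE 0.24, adjusted p = 0.703) and -0.56 (SE 0.23, adjusted p = 0.180), the latter -0.32 without female LKO replicate 3. Slc25a46, a carrier-like protein of the outer membrane, had values of 0.046 (SE 0.076, adjusted p = 0.831) and 0.26 (SE 0.093, adjusted p = 0.141). Slc25a25 differed by 0.23 (SE 0.10, adjusted p = 0.193) in LKO. Slc25a46 and Slc25a25 were called when female LKO replicate 4 was left out, with adjusted p of 0.0350 and 0.0348 by edgeR, but the share of all genes called then rose from 0.0984% to 4.34%.

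Other genes around the carriers held few calls, as did all genes, of which 0.0% to 0.269% were called in the 6 comparisons by edgeR. Among 13 genes of the machinery that inserts carriers into the inner membrane, 11 other metabolite carriers of that membrane, 9 partners of adenine nucleotide exchange, and 10 enzymes of citrate and malate, none passed the adjusted threshold in any of the 6 comparisons by edgeR. In the both-sexes fit those at an unadjusted p below 0.05 numbered 0, 0, 1 and 1, where 11.2% of all genes were at that level. The smallest p in these lists belonged to Timm8a1, Ucp2, Hk2 and Aco1, with log2 differences of 0.18, 0.068, 0.35 and -0.14. Of 9 genes of mitochondrial iron and heme synthesis, Abcb10 had the smallest p over both sexes (log2 difference -0.12, SE 0.042), and 1 of the 9 was called between the sexes in LKO, where 0.0984% of all genes were. It was Alas1, the first enzyme of heme synthesis, which was higher in males by 0.52 (SE 0.081, adjusted p = 0.0395, edgeR), with group means of 200.2, 195, 130.5 and 136 CPM in WT and LKO males and WT and LKO females. With at least 10 counts required in every library, edgeR called no gene higher in male LKO, so Alas1 lost its call. In WT its group mean was also higher in males, with an unadjusted p of 0.00235 by edgeR and no call. The mitoferrins Slc25a37 and Slc25a28 differed by 0.083 (SE 0.062) and -0.0026 (SE 0.072) between the sexes in LKO.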

How the data were processed

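RNA was sequenced from terminal ileum of 16 mice (stranded mRNA libraries, 100-base single-end reads). According to the study's methods the authors aligned reads to mm10 with STAR 2.5.2, kept reads with a single position, and counted them over gene exons with HOMER (4.10 in the submitters' processing notes), 1 RefSeq transcript per gene. The deposited values were whole numbers and were taken as raw counts. The strand setting of the counting is not given in the sources used here. The deposited table also states gene positions and lengths, which were used as given. Depth per library is given in the report.

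Groups and replicate numbers came from the sample titles. The members, gene lists and tests were chosen with earlier results of these data known, and values of members with an unadjusted p below 0.05 were added after they had been seen. Of the symbols of this form, 1 is not a member and 1 member is counted but not described, and 1 listed enzyme is not named. They are not reported here. Named members were those called in any comparison, the 2 smallest p of each comparison, Slc25a4 and Slc25a5, the 3 highest per kb, and for each substrate group the highest per kb and the smallest p. All genes were fitted in edgeR 4.0.16 (R 4.3.3), using its robust quasi-likelihood F-test, TMM scaling, filterByExpr by group and Benjamini-Hochberg adjustment at 0.05. Comparisons of 2 groups used their 8 libraries, and the interaction and the both-sexes effect (sex as covariate) used all 16. The standard error is the log2 fold change divided by the square root of F, as a size. CPM are TMM-scaled, and CPM per kb divides by the stated transcript length. Alternatives were DESeq2 1.42.0, other scalings, filters and fits, animal numbers from the titles as a covariate or in 5 sets, a replicate block and leaving out each library. The fits were also run on simulated counts with changes larger than any member difference given here. That run does not bear on changes of the present size. Runs of 100 bases were compared over GENCODE transcripts, and motifs were matched exactly in RefSeq start regions.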

Additional observations from a re-analysis of the deposited data

Results flagged for a closer look

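In 4 of the 92 groups of 4 libraries looked at (23 members), 1 library lay apart from the other 3 by more than Dixon's criterion allows, where chance flags about 1 group in 20. Slc25a5 had 1089 CPM in female WT replicate 3, against 956 to 968 CPM in the other 3. Slc25a34 had 21.9 CPM in male LKO replicate 4, against 13.9 to 14.5, and 14.5 CPM in female WT replicate 3, against 11.2 to 11.5. Slc25a51 had 111 CPM in female WT replicate 2, against 120 to 121. The first of these places that library within the male range of Slc25a5, and the second enlarges the male difference of Slc25a34.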

How the results depend on the processing

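Among 46 results for single members, 1000 of 1025 values under alternative settings kept their direction and their side of the threshold, 12 lost a call, 8 gained one and 5 changed sign. Most of these results were not called in the main fit, so that total says little about the calls. The call of Slc25a22 over both sexes was lost in 2 of 27 alternatives. That of Slc25a4 between the sexes in LKO was lost in 10 of 20. With DESeq2 the members called numbered 1 in males, 2 in females and 2 over both sexes, while the share of all genes called rose from 0.0527%, 0.0392% and 0.269% to 0.318%, 0.764% and 1.09%. With the animal number as a covariate or sets of numbers as a factor they numbered 0 over both sexes and 0 between males and females in LKO, where at least 10 counts in every library and the non-robust fit also gave 0. The cause was not tested. Signs changed for Slc25a10 over both sexes (-0.015) and Slc25a34 in males (-0.016) with the number as a covariate, for Slc25a5 over both sexes (0.0045) with sets of numbers, and for the interaction of Slc25a22, which ran from -0.11 to 0.024 over libraries left out (above 0 without male WT replicate 4 or male LKO replicate 3). These values lie near 0.

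Leaving out 1 library gave 0 to 1 members called in males (1, Slc25a22, without male WT replicate 4), 1 to 2 over both sexes (Slc25a51 added without that same library) and 0 to 3 between the sexes in LKO. Without male WT replicate 4 the genes called rose from 8 to 29 in males and from 42 to 102 over both sexes. The count of members between the sexes in LKO was 0 without male LKO replicate 1, 3 or 4 or female LKO replicate 1, 2 or 3. It was 3 without female LKO replicate 4, when Slc25a25, Slc25a46 and Slc25a4 were called and the genes called rose from 15 to 665. In the other comparisons the count of members stayed 0. Deviations from the group means were correlated between same-numbered replicates of compared groups, with values from -0.10 to 0.26 and in no comparison all above 0.1. In females replicates 1 and 3 had 0.18 and 0.26, each with the same-numbered library as its closest. Female replicates 2 and 4 had -0.063 and 0.027. These values cannot settle whether the replicate numbers pair animals, and the labels do not say so. With the replicate block 1 member was called over both sexes, 1 between the sexes in LKO and 0 elsewhere, as without it. Ranked by CPM without division by length, the 10 highest members shared 8 with the order per kb. Depth limits 7 members, all under 1 CPM.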
